A study of Mus musculus with 4 samples.

Results

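Chemokines and their receptors were examined as a family of 37 genes, 24 ligands and 13 receptors, chosen by symbol. Each was matched to 1 row of a count table of 55471 genes through the GRCm38 annotation of GENCODE M21. The table holds poly(A) RNA sequencing of CD11b cells isolated from mouse brain by magnetic sorting, in 4 libraries of a single group. All mice, aged 10 to 13 weeks, received PLX5622 for 7 days and were then kept without it for 10 days, so that microglia could return. PLX5622 inhibits CSF1R, the receptor that microglia need to survive, and every library carries this treatment. The labels state neither strain nor sex nor whether animals were pooled, no other group was analysed here, and levels and spread are therefore described without an effect of the drug. CD11b is also carried by other myeloid cells, so the sort is not specific to microglia. The libraries are called 1 to 4 after their labels.

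Chemokines are small secreted proteins that guide moving cells along a gradient, and they are grouped by the spacing of their first cysteines into CC, CXC and CX3C types. Their receptors span the membrane and signal through inhibitory G proteins, whereas atypical receptors of the ACKR group bind the ligands without G protein signalling and take them up or move them. In the brain, microglia are known for the fractalkine receptor CX3CR1, whose ligand is made by neurons, and for releasing CC chemokines when they are disturbed. Vascular and meningeal cells make CXCL12, and interferon induces CXCL9 and CXCL10, which draw in T cells.

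Sequence before the start of 4 ligands is shown because their levels, given below, followed different courses across the libraries: Cxcl10 and Cxcl9 were lowest in library 1, Cxcl12 was lowest in library 3, and Ccl3 was the most abundant ligand. The 250 bases before the RefSeq start (GRCm38.p6) were searched on both strands for the core of the interferon-stimulated response element (GAAA, any 2 bases, GAAA), a form of the NF-kB site (GGGA, any 4 bases, CC) and the AP-1 site (TGANTCA). Capitals mark every match, and none of the matches shown overlap. Cxcl10 lies on the minus strand of chromosome 5 (chr5:92348890-92349139), Cxcl9 beside it on the same strand (chr5:92328080-92328329), Cxcl12 on the plus strand of chromosome 6 (chr6:117168285-117168534) and Ccl3 on the minus strand of chromosome 11 (chr11:83649379-83649628).
Cxcl10: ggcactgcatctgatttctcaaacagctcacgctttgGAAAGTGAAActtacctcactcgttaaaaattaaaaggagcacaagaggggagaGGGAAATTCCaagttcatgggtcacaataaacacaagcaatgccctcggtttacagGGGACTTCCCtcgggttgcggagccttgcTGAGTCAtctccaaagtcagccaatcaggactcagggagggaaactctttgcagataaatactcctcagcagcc
Cxcl9: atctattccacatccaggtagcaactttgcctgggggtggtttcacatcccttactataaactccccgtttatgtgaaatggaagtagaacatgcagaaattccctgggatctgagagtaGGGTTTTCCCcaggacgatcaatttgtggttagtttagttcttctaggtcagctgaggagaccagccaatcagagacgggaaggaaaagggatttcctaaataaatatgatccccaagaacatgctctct
Cxcl12: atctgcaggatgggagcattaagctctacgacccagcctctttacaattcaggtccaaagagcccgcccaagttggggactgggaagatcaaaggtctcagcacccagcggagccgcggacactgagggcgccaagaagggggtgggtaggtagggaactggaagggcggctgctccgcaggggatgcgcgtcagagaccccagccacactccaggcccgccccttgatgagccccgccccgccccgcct
Ccl3: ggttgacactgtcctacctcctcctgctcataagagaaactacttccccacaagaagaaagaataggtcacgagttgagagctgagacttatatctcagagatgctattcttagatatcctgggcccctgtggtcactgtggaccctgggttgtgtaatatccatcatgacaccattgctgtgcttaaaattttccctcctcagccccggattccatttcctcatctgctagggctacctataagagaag

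Cxcl10 held all 3 motifs, with the interferon element 213 to 204 bases before the start and NF-kB letters at 159 to 150 and at 103 to 94 bases. Cxcl9 held NF-kB letters at 130 to 121 bases, and Cxcl12 and Ccl3 held none of the 3 motifs in this window. RefSeq windows were matched for 28 of the 37 members, and Ccl2, Ccl4, Ccl5, Ccl7, Ccl11, Ccl24, Cxcl16, Ccr7 and Cxcr5 were not matched. NF-kB letters stood before 11 of the 28 members (39.3%), against 17.6% of all 32851 windows. The interferon core stood before 3 members (10.7%), Ccl19, Cxcl10 and Cxcl14, against 2.98% of all windows, and the AP-1 letters before 3 (10.7%), Cxcl10, Ccr3 and Ccl9, against 6.75%. These shares differ in unit: 2 members had more than 1 window and counted if any window matched, whereas the background counts windows. A match describes letters and not binding.

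Total counts ran from 23036202 to 24487418 per library. All 14 markers of homeostatic microglia were at 226 CPM or more in every library, where CPM are counts per 1000000, with library sizes adjusted by edgeR's TMM factors. None of the 14 passed the test of spread in edgeR described below, and at an unadjusted p under 0.05 there was 1. Quasi-likelihood and DESeq2 also gave 0, but over all genes they gave only 0 and 5, so their 0 here says little. Library 3 stood apart in vascular and choroid plexus genes. The 10 endothelial markers summed to 949, 977, 222 and 825 CPM in libraries 1 to 4, and the 8 ependymal and choroid plexus markers to 16058, 16029, 3338 and 22367 CPM. Whether the libraries are separate animals is not in the labels, so p-values measure only how far these samples differ, which may be technical variation. In bulk samples, fewer cells of a type and less RNA per cell cannot be told apart.

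Of the 37 members, 26 were detected, which here means 1 CPM or more in every library: 19 of 24 ligands and 7 of 13 receptors. Levels of different genes are compared below as CPM per kb of exon. By that measure 1 receptor and 2 ligands stood far above the other members: Cx3cr1 at 869.7 ± 95.1, Ccl3 at 511 ± 184 and Ccl4 at 367 ± 150.0 CPM per kb (SD, n = 4). Cx3cr1 made up 97.4% ± 0.505 of the summed level of the 13 receptors, and Ccl3 and Ccl4 made up 40.1% ± 4.36 and 28.5% ± 4.82 of that of the 24 ligands.

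**Figure D1:**
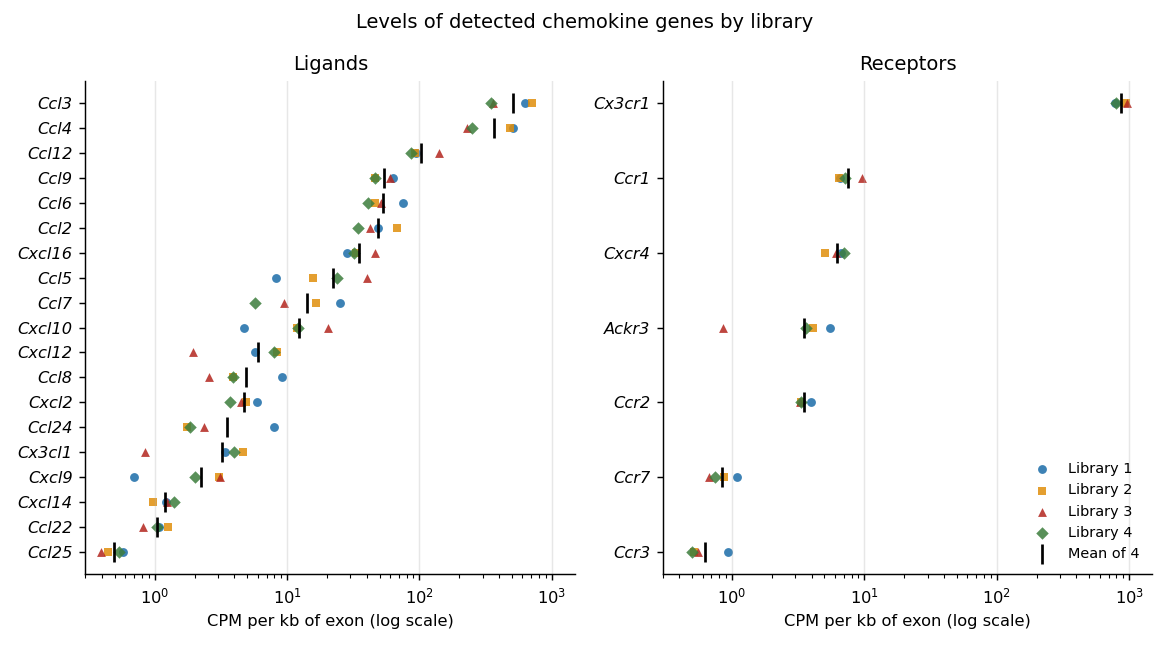
Level of each detected member, in CPM per kb of exon on a log axis, with ligands on the left and receptors on the right. Coloured symbols are the 4 libraries and the black tick is their mean. Ccl3 and Ccl4 lead the ligands. Cx3cr1, at 869.7 on average, lies far above Ccr1, the next receptor among the members, at 7.46.

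Summed over members, ligands and receptors were of similar size, but the balance moved between libraries. The 24 ligands together had 1533, 1551, 1017 and 910.0 CPM per kb in libraries 1 to 4, and the 13 receptors had 804, 964, 983 and 822. The log2 ratio of ligands to receptors was 0.93, 0.69, 0.05 and 0.15, with a mean of 0.45 ± 0.42 (SD, n = 4), so ligands were higher in all 4 libraries, by little in libraries 3 and 4. This sum rests on Cx3cr1: without it the receptors had 26.3, 21.2, 22.2 and 23.2 CPM per kb, and the mean log2 ratio was 5.72 ± 0.39. It also rests on the division by length, as Cx3cr1 has 4505 bases of exon against 766 in Ccl3 and 660 in Ccl4. In CPM alone the mean log2 ratio was -1.67 ± 0.33, with receptors higher. The median ligand lay above the median receptor by 2.06 ± 0.37 on the log2(CPM per kb + 0.5) scale, and by 1.10 ± 0.42 over detected members alone, since 6 of 13 receptors were not detected.

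Among the ligands, CC chemokines of chromosome 11 held the first 6 places per kb. In CPM alone Cxcl16, at a mean of 105.5, lay above Ccl6, Ccl12 and Ccl2, at 95.7, 55.3 and 54.9. The MIP-1 pair, Ccl3 (ENSMUSG00000000982, chr11:83647844-83649355) and Ccl4 (ENSMUSG00000018930, chr11:83662584-83664683), are neighbouring genes on opposite strands whose products attract monocytes and T cells. Ccl3 had 482, 542, 275 and 267 CPM in libraries 1 to 4, and Ccl4 had 338, 317, 149.9 and 165 CPM. The higher values of both were those of libraries 1 and 2. The ratio of Ccl3 to Ccl4 per kb stayed between 1.23 and 1.58. Ccl4 spread more between libraries than genes of its level (edgeR negative binomial goodness of fit, Benjamini-Hochberg adjusted p = 0.0302, highest to lowest library 2.26-fold), a test that 3.28% of all genes passed. Ccl3 differed 2.03-fold and did not pass (adjusted p = 0.121, edgeR). The call of Ccl4 was lost without library 2, 3 or 4 (adjusted p 0.104, 0.156 and 0.22, edgeR), and Ccl3 passed without library 1 (0.0229). The 8 neutrophil markers summed to 82.3, 82.7, 34.1 and 18.1 CPM, also higher in libraries 1 and 2. Of these 5 were detected and 2 of 6 tested passed the test of spread (edgeR), S100a9 and Ngp, both abundant in neutrophils; S100a9 had 23.9, 26.8, 11.9 and 6.23 CPM, and the defining marker Ly6g had 5, 5, 2 and 1 counts. Neutrophils carry CD11b and pass the sort, and their part in the levels of Ccl3 and Ccl4 was not tested.

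Ligands of CCR2, the monocyte chemoattractants, were Ccl12, Ccl2 and Ccl7 in order of level per kb. In CPM alone Ccl12 and Ccl2 were close, at means of 55.3 and 54.9, and Ccl2 was the higher in libraries 1 and 2. Ccl12, a mouse chemokine of this kind (ENSMUSG00000035352, chr11:82101845-82103400), had 50.2, 49.6, 74.9 and 46.5 CPM, or 103 ± 24.5 CPM per kb. Ccl2, the main attractant of inflammatory monocytes (ENSMUSG00000035385, chr11:82035571-82037453), had 55.6, 76.8, 47.9 and 39.3 CPM, or 48.2 ± 14.1 CPM per kb. Ccl7 (ENSMUSG00000035373, chr11:82045712-82047525) had 20.03, 13.3, 7.62 and 4.60 CPM, or 14.2 ± 8.49 CPM per kb. These neighbours peaked in different libraries: Ccl12 in library 3, Ccl2 in library 2 and Ccl7 in library 1. The ratio of Ccl2 to Ccl7 per kb was 1.95, 4.06, 4.43 and 6.001, a 3.07-fold range. None of the 3 passed the test of spread (edgeR adjusted p 1.00, 0.842 and 0.177); at an unadjusted p under 0.05 there was Ccl7 alone, which passed without library 3 (adjusted p = 0.0053).

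Ccl9 and Ccl6, rodent chemokines that bind CCR1, were close in level at 53.9 ± 8.90 and 53.3 ± 14.8 CPM per kb, a gap within their spread. Ccl9 had 192, 140.4, 183 and 141 CPM, and Ccl6 had 134, 83.2, 92.6 and 73.3 CPM. Neither passed the test of spread (edgeR adjusted p 1.00 and 0.837). Their ratio per kb stayed between 0.859 and 1.18. Cxcl16, made as a membrane-bound chemokine and scavenger receptor, had 86.4, 99.9, 139 and 96.5 CPM, or 34.9 ± 7.70 CPM per kb, highest in library 3. Antisense Zmynd15 covers 18.3% of the exons of Cxcl16, so its level is uncertain where strand was not used in counting.

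Cxcl10, Ccl5 and Cxcl9, ligands of T cell and NK cell receptors, were lowest in library 1. Cxcl10 (ENSMUSG00000034855, chr5:92346638-92348889) had 10.7, 26.9, 45.8 and 27.4 CPM in libraries 1 to 4, Ccl5 (ENSMUSG00000035042, chr11:83525778-83530518) had 7.91, 15.2, 38.7 and 23.0 CPM, and Cxcl9 (ENSMUSG00000029417, chr5:92321347-92328079) had 2.12, 9.29, 9.42 and 6.07 CPM. Cxcl10 and Ccl5 peaked in library 3, 4.27-fold and 4.88-fold above library 1. Cxcl9 was about equal in libraries 2 and 3, 4.44-fold above library 1 at most. Cxcl10 and Ccl5 passed the test of spread (edgeR adjusted p 0.0249 and 0.0153), and Cxcl9 did not (0.421). Without library 1, 2 or 3 neither passed (adjusted p 1.00, 0.0782 and 0.137 for Cxcl10, and 0.372, 0.0688 and 0.163 for Ccl5, edgeR). The ratio of Ccl5 to Cxcl10 per kb stayed between 1.32 and 1.98. Antisense Art3 covers 5.91% of the exons of Cxcl10.

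The 13 interferon-stimulated genes listed beside them summed to 321, 494, 1097 and 735 CPM, all 13 were highest in library 3, as were 29.7% of all detected genes, and 11 were lowest in library 1, as were 32.6%. Irf7, an interferon-induced transcription factor, had 21.2, 45.2, 116 and 72.1 CPM. Their part in the spread of Cxcl10, Ccl5 and Cxcl9 was not tested. T and NK cells also make Ccl5, Ccl3 and Ccl4. Of their 12 markers 4 were detected, and the list summed to 27.7, 19.8, 12.4 and 12.1 CPM. The T cell genes Cd3e, Cd3d and Cd3g had 1 to 10 counts per library, and the granzyme gene Gzma, of cytotoxic cells, had 11.7, 5.70, 3.35 and 2.66 CPM. The part of these cells in the 3 chemokines was not tested.

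Cxcl12, Cx3cl1 and the atypical receptor Ackr3 were lowest in library 3. Cxcl12, made by vascular and meningeal cells (ENSMUSG00000061353, chr6:117168535-117181367), had 46.7, 68.8, 15.8 and 64.9 CPM. Cx3cl1, the membrane-tethered fractalkine of neurons and endothelium (ENSMUSG00000031778, chr8:94772009-94782427), had 13.3, 18.4, 3.30 and 15.7 CPM, and Ackr3, which takes up CXCL12 (ENSMUSG00000044337, chr1:90203980-90216751), had 18.5, 13.7, 2.86 and 12.2 CPM. In each, library 3 lay below the other libraries, and the highest library exceeded it 4.35-fold, 5.56-fold and 6.46-fold. Cxcl12 and Ackr3 passed the test of spread (edgeR adjusted p 0.000609 and 0.0466), and Cx3cl1 did not (0.0663). Without library 3 the adjusted p of both was 1.00, and Ackr3 was also lost without library 1, 2 or 4 (0.193, 0.128 and 0.065, edgeR).

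Lists of vascular, meningeal and choroid plexus markers were also lowest in library 3. Of 10 endothelial markers 9 were lowest in library 3, as were 26.6% of all detected genes, and 9 passed the test of spread (edgeR); Cldn5, a tight junction gene, had 154, 107, 17.7 and 78.9 CPM. The 8 pericyte and smooth muscle markers summed to 624, 601, 93.9 and 405 CPM, and the 7 leptomeningeal fibroblast markers to 51.7, 50.6, 13.6 and 61.4 CPM. Of those tested, 5 of 8 pericyte and smooth muscle markers and 1 of 6 fibroblast markers passed (edgeR). All 8 ependymal and choroid plexus markers were lowest in library 3, and all 8 passed (edgeR). Neuronal markers did not move as a group: 4 of 8 were detected, of which Map2 and Stmn2 were lowest and Snap25 and Camk2a highest in library 3. Which of these cells carried Cxcl12, Cx3cl1 and Ackr3 was not tested.

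Ccl24, Ccl8 and Ccl7 were highest in library 1. Ccl24, an eotaxin that binds CCR3 (ENSMUSG00000004814, chr5:135569937-135573049), had 10.4, 2.29, 3.04 and 2.38 CPM. Its mean of 4.53 CPM fell to 2.57 CPM without library 1. Ccl8, a ligand of CCR8 in mouse (ENSMUSG00000009185, chr11:82115185-82116799), had 4.69, 1.99, 1.32 and 1.98 CPM. Library 1 exceeded the lowest library 4.54-fold for Ccl24 and 3.55-fold for Ccl8, and neither passed the test of spread (edgeR adjusted p 0.181 and 0.914). Ccl24 passed without library 3 (adjusted p = 0.00114, edgeR). Of 10 markers of border-associated macrophages, which line brain vessels and meninges, 9 were highest in library 1, as were 35.1% of all detected genes, and 5 passed the test of spread in edgeR, against 3.28% of all genes. With quasi-likelihood variances 0 genes of this list, and 0 of the endothelial, interferon-stimulated, neutrophil and immediate early lists, passed. The same variances gave 0 over all genes. The border macrophage list summed to 1655, 1199, 1233 and 1037 CPM, and Cd163, a haemoglobin scavenger receptor, had 69.0, 32.6, 24.5 and 27.2 CPM. Their part in the levels of Ccl24, Ccl8 and Ccl7 was not tested.

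**Figure D2:**
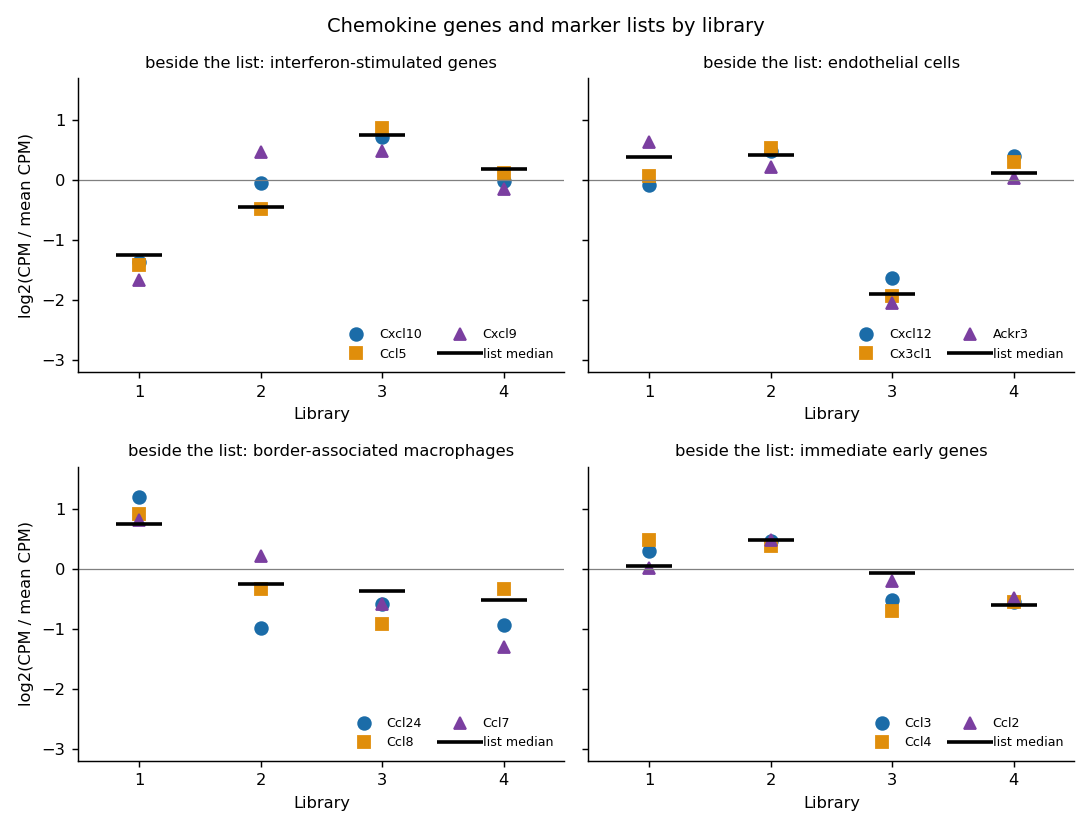
log2 of CPM over the gene's mean of the 4 libraries, by library, for 3 members in each panel, with a black bar for the median of the detected genes of a marker list. Cxcl10, Ccl5 and Cxcl9 lie lowest in library 1 as does the interferon-stimulated list. Cxcl12, Cx3cl1 and Ackr3 lie lowest in library 3 as does the endothelial list. Ccl24, Ccl8 and Ccl7 lie highest in library 1 as does the border macrophage list. Ccl3 and Ccl2 lie highest in library 2 and lowest in library 4 as does the immediate early list, whereas Ccl4 lies highest in library 1 and lowest in library 3. Members were put in panels after their values were seen.

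The remaining ligands were low. Cxcl2, a neutrophil attractant, had 7.70 to 12.3 CPM, and Ccl25, a thymic and gut chemokine, had 2.91 to 4.32 CPM. Ccl22, a ligand of CCR4, had 1.89 to 2.94 CPM, and Cxcl14 had 1.77 to 2.54 CPM. None of these 4 passed the test of spread (edgeR adjusted p 1.00 each). Antisense Elavl1 covers 2.74% of the exons of Ccl25. Ccl17, a CCR4 ligand that neighbours Ccl22 and Cx3cl1 on chromosome 8, had 3.55, 1.598, 0.440 and 1.11 CPM, and missed the detection level in library 3 alone. Its 8.06-fold range was the widest of the members tested, on 87, 37, 10 and 28 counts, and did not pass the test of spread (edgeR adjusted p = 0.121). Cxcl13, a B cell attractant, had 10, 29, 50 and 20 counts and was not tested. The ratio of Ccl17 to Ccl22 per kb was 6.45, 2.46, 1.05 and 2.08, so these neighbours did not keep step. Cxcl1 had 39, 28, 24 and 18 counts, the eotaxin Ccl11 had 0, 1, 1 and 1, and Ccl19, a guide of dendritic cells to lymph nodes, had 0 in every library. A count of 0 allows up to 3 counts, or 0.119 to 0.132 CPM, which covers counting error only. Words of 50 bases found in no other gene made up 48.0% of the transcripts of Ccl19. Its count may therefore lack reads shared with other genes.

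Among the receptors, Cx3cr1 (ENSMUSG00000052336, chr9:119901616-120069879) was both the most abundant and among the steadiest. It had 3502, 4246, 4327 and 3597 CPM in libraries 1 to 4, a 1.24-fold range (edgeR adjusted p = 1.00). Ccr1, a receptor of CC chemokines on myeloid cells, had 18.7, 18.3, 27.2 and 20.4 CPM, and Cxcr4, the signalling receptor of CXCL12, had 12.0, 9.07, 11.1 and 12.6 CPM. At 7.46 ± 1.45 and 6.20 ± 0.856 CPM per kb these neighbours in the order did not differ beyond their spread. Ccr2, the receptor of CCL2 on inflammatory monocytes (ENSMUSG00000049103, chr9:124101950-124113557), had 26.9, 22.4, 22.2 and 22.5 CPM, or 3.48 ± 0.333 CPM per kb, close to the 3.53 ± 1.95 CPM per kb of Ackr3. It varied 1.21-fold, the smallest range of any detected member. Ccr7, which leads dendritic cells to lymph nodes, had 2.16, 1.73, 1.32 and 1.47 CPM, and Ccr3 had 1.63 to 3.06 CPM. Ccr1, Cxcr4, Ccr2, Ccr7 and Ccr3 did not pass the test of spread (edgeR adjusted p 1.00 each).

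Of the 8 monocyte markers listed, 4 were detected, and the list summed to 41.4, 45.6, 57.3 and 41.2 CPM. The integrin gene Itga4 had 17.4, 23.7, 27.0 and 20.96 CPM and Ms4a4c had 6.405, 6.87, 15.9 and 10.3 CPM, both highest in library 3. Ly6c2, a defining surface marker, had 1.59, 1.21, 1.01 and 0.754 CPM and was highest in library 1. Which cells carried Ccr2 was not tested. The other 6 receptors were not detected. Ccr6 had 19, 11, 18 and 21 counts, Cxcr3, which binds CXCL9 and CXCL10, had 43, 20, 26 and 11, and Ccr9 had 6, 4, 6 and 9. Cxcr5 and Cxcr6, of B cells and T cells, and Ackr1, of venular endothelium and red cells, had 1 to 5 counts per library. Unique 50-base words made up 79.6% of the transcripts of Ackr1, which overlaps Cadm3 on the same strand, and 79.9% of those of Ccr9.

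Among pairs of members with enough counts, ligand RNA per kb mostly exceeded that of the receptor, and fractalkine had far less. Cx3cl1 had 3.22 ± 1.67 CPM per kb and Cx3cr1 869.7 ± 95.1, a mean log2 ratio of ligand to receptor of -8.33 ± 1.22 (SD, n = 4), with the receptor higher in all 4 libraries. Ccl3 exceeded Ccr1 by 6.04 ± 0.75, Ccl12 exceeded Ccr2 by 4.87 ± 0.37 and Ccl2 exceeded Ccr2 by 3.75 ± 0.42 on the log2 scale, in 4 of 4 libraries each. Cxcl10 exceeded Cxcr3 by 4.34 ± 1.46 in 4 of 4 libraries. Per kb, Cxcl12 and Cxcr4 did not differ beyond their spread, with a log2 ratio of -0.24 ± 1.03 and the ligand higher in 2 of 4 libraries. That result rests on the division by length. In CPM alone Cxcl12, at 15.8 to 68.8, was higher than Cxcr4, at 9.07 to 12.6, in all 4 libraries. Other pairs rest on it too. Per kb, Ccl7 exceeded Ccr2 and Ccl5 exceeded Ccr1 in 4 of 4 libraries. In CPM alone Ccl7, at 4.60 to 20.03, was lower than Ccr2, at 22.2 to 26.9, in all 4. Ccl5 was then lower than Ccr1 in libraries 1 and 2, at 7.91 and 15.2 against 18.7 and 18.3 CPM. Cxcl16 had 34.9 ± 7.70 CPM per kb while its receptor Cxcr6 had 1 to 4 counts. Ccl11 and Ccl19, at 0 to 1 counts, lay below their receptors Ccr3 and Ccr7, at 0.625 ± 0.208 and 0.844 ± 0.186 CPM per kb. For Ccl19 the count may lack reads shared with other genes. Ligand RNA and receptor RNA in a sorted population need not lie in the same cells.

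**Figure D3:**
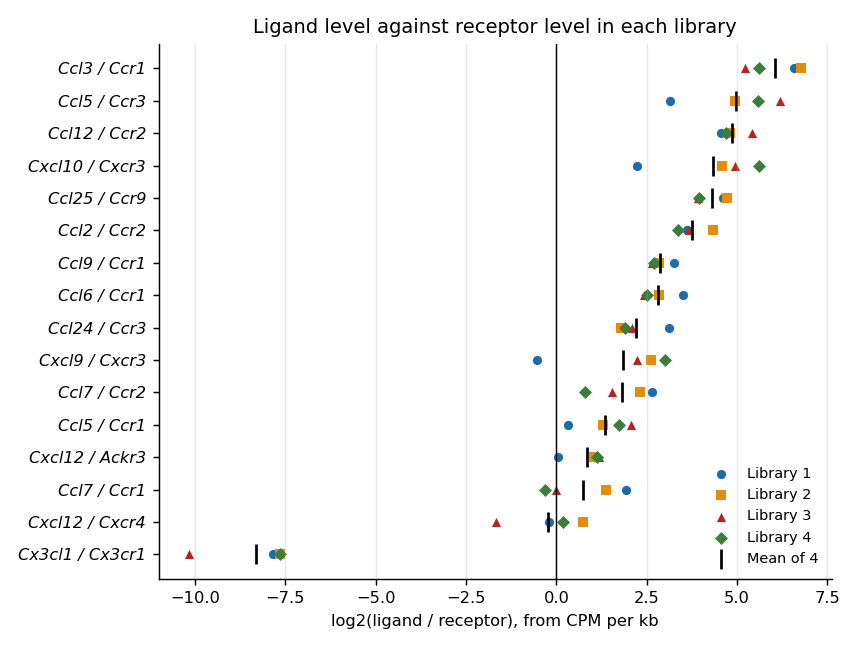
log2 ratio of ligand to receptor from CPM per kb, for the 16 pairs in which both genes had over 3 counts in every library. Symbols are the 4 libraries and the black tick their mean; points right of the zero line have more ligand, and Cx3cl1 over Cx3cr1 lies at -8.33 on average.

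Across the family, 30 of the 37 members had enough counts for the test of spread, all but Ccl11, Ccl19, Cxcl13, Ccr9, Cxcr5, Cxcr6 and Ackr1, and 5 of these 30 (16.7%) passed: Ccl4, Ccl5, Cxcl10, Cxcl12 and Ackr3. The background was 463 of 14112 genes (3.28%) by the same edgeR test at an adjusted p under 0.05. A further 6 members had an unadjusted p under 0.05, making 11 in all. With quasi-likelihood variances 0 members passed and 6 had an unadjusted p under 0.05, and DESeq2 gave 0. Over all genes these 2 alternatives gave 0 and 5. By size, 11 of 26 detected members (42.3%), 10 ligands and 1 receptor, had a highest library at least 2-fold above their lowest, against 17.1% of all 12512 detected genes. The median range was 2.03-fold for detected ligands and 1.48-fold for detected receptors, against 1.38-fold for all detected genes. The members were chosen with earlier results of these data known, so these shares describe them and test nothing.

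**Figure D4:**
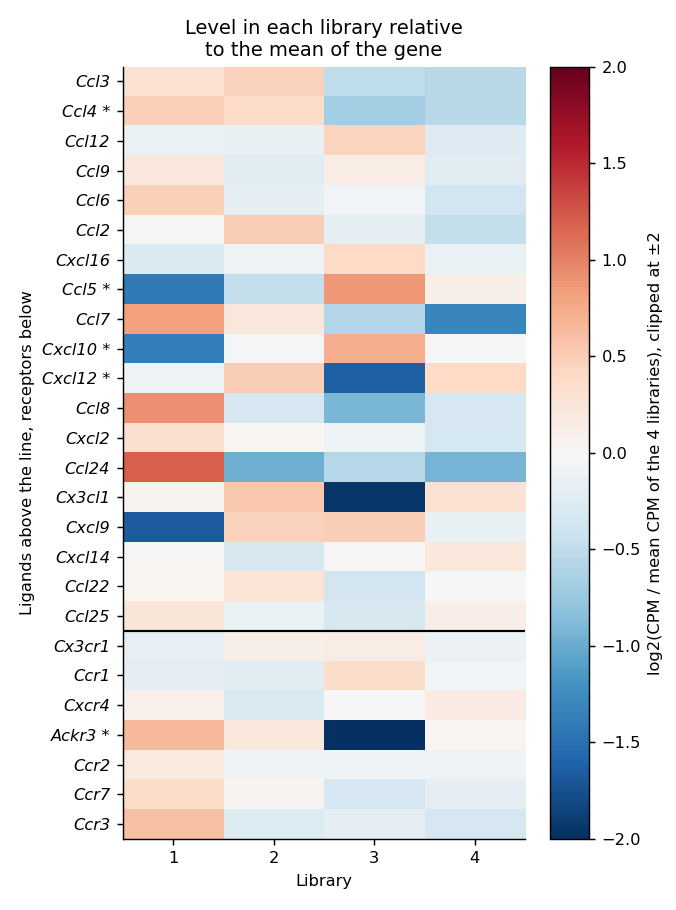
Heat map of log2 of CPM over the gene's mean of the 4 libraries, 1 row a detected member in order of level and 1 column a library, with ligands above the line and receptors below. Asterisks mark the 5 members past the edgeR test of spread; Cxcl12, Cx3cl1 and Ackr3 are darkest blue in library 3 and Cxcl10, Ccl5 and Cxcl9 in library 1, while Cx3cr1 and Ccr2 are pale throughout.

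Other genes of the family were mostly absent or low. Of 23 further ligands and receptors, 3 were detected, 7 had no count, and 1 of the 5 tested passed the test of spread (edgeR). Ccrl2, an atypical receptor of myeloid cells that presents chemerin, had 108, 164, 130.1 and 95.1 CPM. Its 47.8 ± 11.7 CPM per kb lay above every receptor member except Cx3cr1. Pf4, a platelet chemokine that border-associated macrophages also express and that stands in their list here, had 40.0, 10.5, 9.55 and 8.30 CPM (adjusted p = 0.00198, edgeR), highest in library 1. Ccl27a and Cxcr2, a neutrophil receptor, were next at 0.517 and 0.492 CPM per kb. Genes that relay the signal inside the cell were present throughout: all 29 listed were detected, from 1.83 CPM upwards. None passed the test of spread in edgeR, with 1 at an unadjusted p under 0.05. Quasi-likelihood and DESeq2 gave 0, against 0 and 5 over all genes. The highest were Rgs10 and Rgs2, which shorten G protein signals, at 334 and 242 CPM per kb, the small GTPase Cdc42 at 213 and Arrb2, a beta-arrestin that uncouples receptors, at 207.

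Immediate early genes, which cells switch on within minutes of a disturbance that can include isolation itself, were set beside Ccl3, Ccl4 and Ccl2. The 10 listed summed to 13563, 18764, 12621 and 9090.0 CPM, 9 were highest in library 2, as were 16.7% of all detected genes, and 10 lowest in library 4, as were 21.1%. The 10 NF-kB target and inflammatory genes summed to 1773, 2608, 1927 and 1419 CPM, and Il1b, an inflammatory cytokine, had 74.8, 143, 49.0 and 46.3 CPM. Library 2 was also the highest for Ccl3 and Ccl2, and library 4 the lowest, although scaling to the homeostatic list made library 3 the lowest for both. Ccl4 was highest in library 1 and lowest in library 3, and that scaling made library 2 its highest. The part of isolation in these levels was not tested, as no library was made without it.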

How the data were processed

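CD11b cells of mouse brain gave 4 poly(A) libraries from 300 ng RNA each with a directional kit, per the labels' protocols. The authors deposited raw read counts per Ensembl gene. The build GRCm38 and the tools featureCounts 1.6.5, STAR 2.7.2b and bcl2fastq 2.20.0.422 are those of the submitters' processing notes. Annotation release, strand setting and treatment of ambiguous reads: not given in the sources used here, which leaves overlapping genes uncertain.

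Symbols, coordinates and union exon lengths came from GENCODE M21 (55230 of 55471 identifiers matched), and promoters from RefSeq. Ccl19 also has an identifier on an unplaced scaffold, with 0 counts. CPM used TMM factors over all genes (1.00, 1.01, 0.963 and 1.03; edgeR 4.0.16, R 4.3.3). Spread was tested on the 14112 genes kept by filterByExpr at a minimum count of 10. Each gene's deviance from a constant level, in a negative binomial model at the trended dispersion, was referred to the chi-square distribution (3 df), with Benjamini-Hochberg adjustment and a threshold of 0.05. With a single group there is no coefficient to test. Alternatives were quasi-likelihood variances, DESeq2 1.42.0 dispersion outliers, other scalings, no filter and leaving out each library. The test was also run on counts simulated at the dispersion that it assumes. Such a run cannot show how the test behaves where genes differ in scatter.

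Members and lists were chosen with earlier results of these data known. Values per library are given for members past the threshold, the 10 ligands and 6 receptors highest per kb, and detected members with a 2-fold range. Other members were given their values after these were seen. Of listed family and signalling genes, the 4 highest per kb and any past the threshold are named, and marker genes were named as examples after their values were seen. A further receptor of the family is not reported here, and sums, shares and pairs of receptors cover the 13 members alone and would change with it. No pair of libraries agreed within sampling noise (chi-square per degree of freedom 19.0 or more).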

Additional observations from a re-analysis of the deposited data

Results flagged for a closer look

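In 4 of 28 sets of 4 library values checked (26 detected members and 2 ligand-to-receptor ratios), a single library lay so far from the others that the gap, as a share of the whole range, exceeded the critical value of Dixon's test for 4 samples. Chance flags about 1 in 20 such sets. Ccl12 stood out in library 3, at 74.9 CPM. Library 1 stood out for Ccl24 at 10.4 CPM, for Ccr2 at 26.9 CPM and for Ccr3 at 3.06 CPM. For Ccr2 the whole range was 1.21-fold.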

How the results depend on the processing

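The 5 members past the test of spread became 3 with DESeq2 size factors (RLE), 2 without the filter on low counts, 0 with the quasi-likelihood test and 0 as DESeq2 outliers, and between 1 and 3 with a library left out. Without library 3 the 2 members past it were Ccl7 and Ccl24. Over all genes, 463 became 0 with quasi-likelihood, 5 with DESeq2 and between 106 and 425 with a library left out. Under RLE, Ccl4 and Ackr3 had adjusted p of 0.058 and 0.0511, and without the filter Ccl4, Cxcl10 and Ackr3 had 0.0726, 0.0601 and 0.081 (edgeR). The summed log2 ratio of ligands to receptors, 0.45, reversed to -1.67 in CPM without length and moved to 5.72 without Cx3cr1. The median difference, 2.06, moved to 1.10 over detected members and to 2.56 with a pseudocount of 0.1. With a library left out these lay between 0.294 and 0.589 and between 1.96 and 2.24. Detected members numbered 21 to 27 in the alternatives run. Scaling to the homeostatic list changed the highest library of 7 and the lowest of 4 of the 21 members named by rule. It moved the highest library of Ccl4 and of Cxcl9 to library 2 and of Cxcl12 and of Ccr2 to library 4. No paired analysis was possible because there is a single group.

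Depth limits members with 3 counts or fewer, and a group of 4 libraries limits the test of spread. Where leaving out a library ended a call, the cause was not tested, though such a fit also has fewer samples. Quasi-likelihood variances estimate each gene's scatter and the goodness of fit does not, so the count of 5 depends on the model.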
